A study of Mus musculus with 12 samples.

Results

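Citrullination of trichohyalin and its crosslinking by transglutaminases were followed in mouse back skin through 8 genes: Padi1, Padi2, Padi3, Padi4, Tchh, S100a3, Tgm1 and Tgm3. The genes were taken by name, as the probes that carry one of these gene names on the array, which gave 8 of 27373 gene names and 11 of 41174 probes. Padi4 had 3 probes, Tchh had 2 and the other 6 genes had 1 each. The brightest probe stands for a gene, and the other probes are given beside it.

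The DNA microarray compared whole back skin of male C57BL/6J mice, 8 weeks old, that were shaved and from the next day received 200 µL daily of 3% minoxidil (MXD), 10% cell extract of the cactus Notocactus ottonis (N-CE) or the vehicle of propylene glycol, ethanol and water (VC). Every group, VC included, had been shaved. Skin was sampled after 1, 2 and 3 weeks (1W, 2W and 3W), and the RNA of 6 mice made up 1 pool, so none of the 9 pools has a biological replicate. A pair of dye-swapped arrays set each MXD or N-CE pool against VC, and the SD given with a log2 fold is over these 2 arrays and measures the hybridization only. MXD and N-CE of a week share 1 slide of 4 arrays and the same VC RNA. Their values are thus not independent, and week and slide cannot be told apart.

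Peptidylarginine deiminases (PADs) convert arginine residues of proteins to citrulline, which removes a positive charge and loosens the protein. In the hair follicle, trichohyalin fills granules of the inner root sheath and medulla as an arginine- and glutamate-rich protein, and after deimination it is spread among the keratin filaments and joined to them by transglutaminases, which link glutamine to lysine side chains. PAD3 is the deiminase best known for trichohyalin, PAD1 for epidermal proteins, PAD4 for histones in nuclei, and PAD2 is the widely expressed form found in muscle, brain and immune cells.

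The arginine content that makes trichohyalin a substrate can be read from the probe in its coding repeats, shown here because it is among the 2 Tchh probes. It lies at chr3:93250264-93250323 on the plus strand of mm9, from base 3087 of the transcript NM_001163098. Capitals mark arginine codons in the reading frame that holds most arginine and glutamate codons of the 2 frames without a stop codon. This frame was chosen by that count and was not checked against the annotated one. Of its 20 codons, 5 are for arginine and 8 for glutamate.

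Tchh coding probe: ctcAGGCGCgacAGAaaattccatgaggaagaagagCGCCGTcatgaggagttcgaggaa

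The 250 bases before a transcription start are shown for Tchh and Padi3, the members with the most similar response, and for Padi2, which moved the other way. The Padi2 window ends at 140906359, past the first base of the gene locus at 140906336. The windows are RefSeq sequence of GRCm38.p6, written 5′ to 3′ on the gene's strand. Capitals mark matches on either strand to 6 short motifs. These are the LEF1/TCF motif CTTTGA, the AP-1 motif TGANTCA, the GATA motif AGATAA, the CCAAT box, the GC box GGGCGG and the TATA box TATAAA.

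Tchh, chr3:93442080-93442329, plus strand: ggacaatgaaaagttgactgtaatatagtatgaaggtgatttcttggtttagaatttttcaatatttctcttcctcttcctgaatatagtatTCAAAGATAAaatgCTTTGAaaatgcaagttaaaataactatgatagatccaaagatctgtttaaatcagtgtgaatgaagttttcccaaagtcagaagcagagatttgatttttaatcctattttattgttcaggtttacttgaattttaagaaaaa

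Padi3, chr4:140810649-140810898, minus strand: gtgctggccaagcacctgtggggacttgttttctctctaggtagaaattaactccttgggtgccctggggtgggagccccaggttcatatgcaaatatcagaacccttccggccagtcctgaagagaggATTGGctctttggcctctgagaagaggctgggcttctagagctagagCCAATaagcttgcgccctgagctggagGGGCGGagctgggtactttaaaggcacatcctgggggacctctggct

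Padi2, chr4:140906110-140906359, plus strand: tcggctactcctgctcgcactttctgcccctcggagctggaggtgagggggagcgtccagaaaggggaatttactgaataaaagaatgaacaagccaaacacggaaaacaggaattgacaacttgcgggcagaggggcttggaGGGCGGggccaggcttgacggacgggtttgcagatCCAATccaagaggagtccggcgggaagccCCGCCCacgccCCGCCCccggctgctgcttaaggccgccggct

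The Tchh window held 2 matches to CTTTGA, of which the one on the reverse strand overlaps its single match to AGATAA. Padi3 had 2 CCAAT matches and 1 GC box, and Padi2 had 1 CCAAT match and 3 GC boxes. Among 32851 promoter windows of this length, the LEF1/TCF motif was found in 13.8%, the AP-1 motif in 6.75%, the GATA motif in 9.99%, the CCAAT box in 33.8%, the GC box in 32.7% and the TATA box in 12.4%. The 8 genes had 12 such windows, since some have several transcription starts, and in the same order 3, 1, 1, 5, 4 and 3 of the 12 held a match. These are matches of letters and not known binding sites.

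Before the results, the agreement of the dye-swapped arrays is given. Those of N-CE at 2W correlated at -0.17 over the log2 folds of 25016 probes above background, against 0.26 to 0.71 in the other comparisons. By size, the median SD over the 2 arrays was largest with MXD at 2W (0.23), then with N-CE at 2W (0.20). It was 0.12 to 0.15 in the rest, so the folds of both comparisons at 2W are the less certain ones. Markers of the labelled tissue were present: with MXD at 2W all 7 of interfollicular epidermis, 7 of hair cortex, 5 of melanocytes and 10 of skeletal muscle on the array were above background.

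A probe was called when the P that the scanner software assigns to a spot was under 0.01 for each array of the dye swap, with 1 sign, and the mean fold was above 1.5 or below 0.75. In 4 of the 6 comparisons few or none of the 8 genes were called, and the calls lay mainly in MXD at 2W and N-CE at 1W. With MXD at 2W, 6 genes rose (Padi1, Padi3, Padi4, Tchh, Tgm3 and S100a3) and Padi2 fell, while 4.04% of all probes were called higher and 5.82% lower. With N-CE at 1W, 5 genes fell (Padi1, Padi3, Padi4, Tchh and S100a3) and 0 rose, against 1.49% of all probes lower and 0.292% higher. With MXD at 1W, S100a3 rose and Padi2 fell, against 0.685% and 0.765% of all probes. The median log2 fold of the 8 genes was 1.22 for MXD at 2W and -1.61 for N-CE at 1W, and the median over all probes was 0 in both.

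At 3W no member was called in either treatment, nor with N-CE at 2W. The background was as low there. For MXD at 3W 0.144% of probes were higher and 0.161% lower, for N-CE at 2W 0.0682% and 0.0511%, and for N-CE at 3W 0.151% and 0.139%. The median of the members was -0.04, 0.20 and 0.03 in these 3 comparisons.

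**Figure D1:**
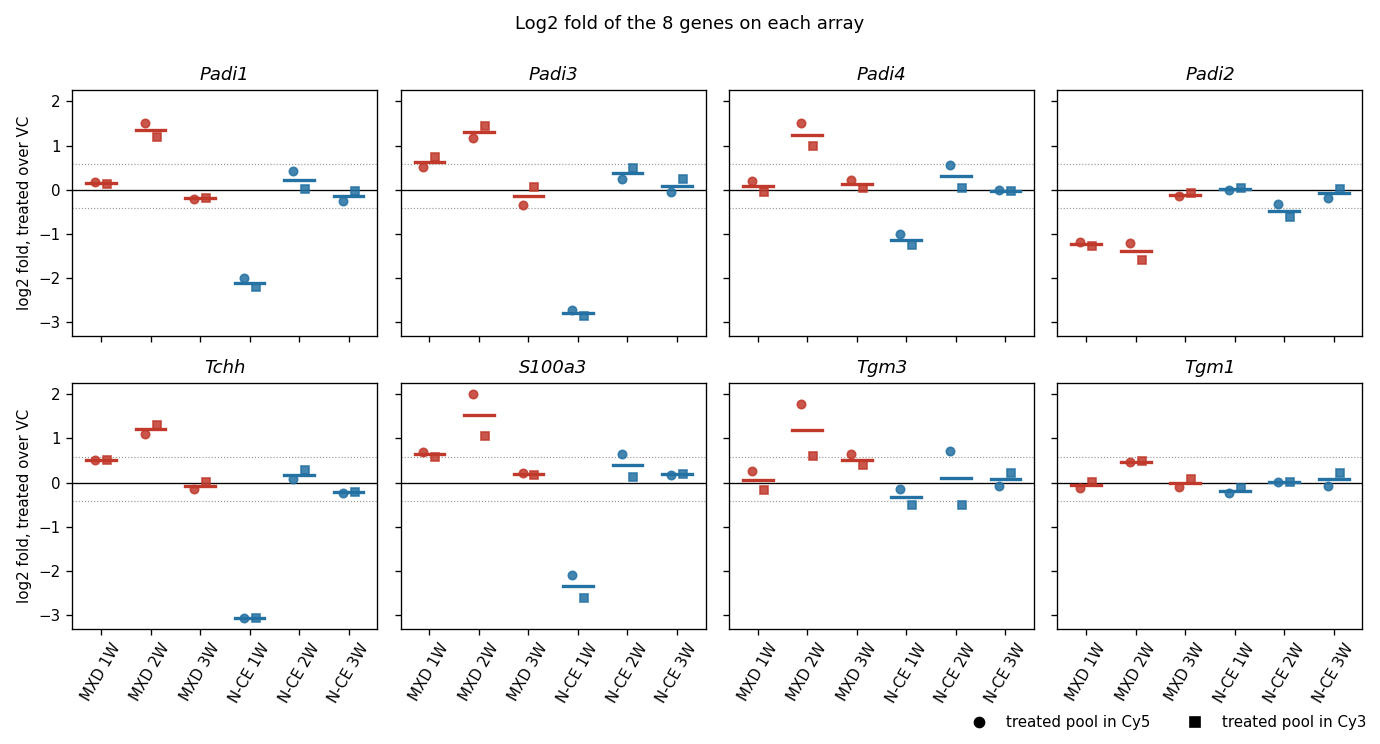
Log2 fold of treated over VC (y axis) for the 8 genes on each array, by comparison (x axis). Circles have the treated pool in Cy5 and squares in Cy3, bars are the means of the 2 arrays, red is MXD, blue is N-CE, and dotted lines mark folds of 1.5 and 0.75. MXD 2W lies above 0 in all panels but Padi2, and N-CE 1W lies far below 0 in Padi1, Padi3, Padi4, Tchh and S100a3.

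By its brighter probe, trichohyalin had the largest change of the 8 genes with N-CE at 1W. This probe, near the end of the transcript, read 6451 and 5711 in the treated pool against 53704 and 47627 in VC, in units of dye-normalized signal. The log2 fold was -3.06 ± 0.00 (SD, n = 2 arrays), or 8.33-fold lower. With MXD at 2W it read 113741 and 109104 against 52956 and 44237, a log2 fold of 1.20 ± 0.14 (SD, n = 2 arrays). Treated and VC readings did not overlap in either case. At 1W MXD gave 0.52 ± 0.00 (SD, n = 2 arrays), a fold of 1.43 that stayed under the threshold, with a P of up to 0.0135.

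The coding probe of Tchh, whose sequence is above, gave the same calls in MXD 2W and N-CE 1W. It had log2 folds of 1.66 ± 0.35 and -2.62 ± 0.00 (SD, n = 2 arrays). By this probe the fall with N-CE was smaller than that of Padi3, at -2.79. The coding probe was also called higher with MXD at 1W, at 0.68 ± 0.01 (SD, n = 2 arrays), where the brighter probe was not. Over the 12 arrays the log2 folds of the 2 probes differed by a root mean square (RMS) of 0.37.

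Padi3 followed trichohyalin closely. Its signal was 960 and 862 with N-CE at 1W against 6325 and 6278 in VC, and 65005 and 59862 with MXD at 2W against 28913 and 21896. The log2 folds were -2.79 ± 0.10 and 1.31 ± 0.20 (SD, n = 2 arrays), that is 6.93-fold lower and 2.48-fold higher. With MXD at 1W the fold of 1.54 exceeded the threshold, but the P of 1 array was 0.0156 and Padi3 was not called.

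Padi1, the deiminase of the differentiating epidermis and follicle, moved in the same comparisons. N-CE at 1W gave 211 and 193 against 841 and 892 in VC, a log2 fold of -2.10 ± 0.15 (SD, n = 2 arrays). MXD at 2W gave 13027 and 10056 against 4566 and 4375, a log2 fold of 1.36 ± 0.22 (SD, n = 2 arrays). In the other 4 comparisons it stayed between -0.19 and 0.22.

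Padi4, the histone deiminase, showed the smallest fall of the 5 genes. It read 539 and 483 with N-CE at 1W against 1079 and 1153, a log2 fold of -1.13 ± 0.18 (SD, n = 2 arrays). With MXD at 2W it read 15544 and 11040 against 5461 and 5599, a log2 fold of 1.24 ± 0.37 (SD, n = 2 arrays). A second probe gave -0.94 ± 0.20 and 1.08 ± 0.04 (SD, n = 2 arrays) and was called in both. The third was called with MXD at 2W at 1.38 ± 0.58 (SD, n = 2 arrays). With N-CE at 1W it was not well above background in the treated pool on either array, nor in VC on 1 of the 2, and it was not called, so no fold is given there. Neutrophils also carry Padi4, and 5 of 9 measured neutrophil markers were called higher with MXD at 1W. The other 2 of the 11 markers on the array were not above background. The summed signal of the list was 15393 to 21285 there against 3065 to 3802 in VC, and Padi4 was at 0.08 ± 0.18 (SD, n = 2 arrays). With MXD at 2W 1 of 6 measured markers was called higher (S100a8), while 4 lay below 0 and the median was -0.18. With N-CE at 1W 1 of 5 was called higher (S100a9), and all 5 lay above 0 with a median of 0.17. The part of neutrophils in the Padi4 values was not tested.

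S100a3, a calcium- and zinc-binding protein of the hair cuticle that PAD3 deiminates, was the only member whose brightest probe was called higher in more than 1 comparison. It read 52579 and 53138 with MXD at 1W against 32423 and 35481, a log2 fold of 0.64 ± 0.08 (SD, n = 2 arrays). That call sits at the threshold, as the second array alone gave 0.58, just under a fold of 1.5, and would not be called. At 2W it read 195004 and 171468 against 48361 and 83155, a log2 fold of 1.53 ± 0.68 (SD, n = 2 arrays). The VC readings differed between the 2 arrays more than the MXD readings did. With N-CE at 1W the readings were 8201 and 5797 against 34768 and 35320, a log2 fold of -2.35 ± 0.37 (SD, n = 2 arrays).

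Of the crosslinking enzymes, Tgm3 was called in 1 comparison and Tgm1 in 0. Tgm3, the epidermal and follicular transglutaminase known to act on trichohyalin, read 8662 and 5003 with MXD at 2W against 2514 and 3290. Its log2 fold of 1.19 ± 0.83 (SD, n = 2 arrays) joins arrays of 1.78 and 0.60, so its size is poorly set. At 3W MXD gave 0.64 and 0.40, a mean of 0.52 ± 0.17 (SD, n = 2 arrays), the highest of the members in that week but not called. With N-CE at 1W, Tgm3 was at -0.33 ± 0.25 (SD, n = 2 arrays), and with N-CE at 2W its arrays disagreed in sign, at 0.72 and -0.50.

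Tgm1, the membrane-bound transglutaminase of the cornified envelope, had the narrowest range of log2 folds among the members, from -0.18 to 0.48. Its largest value was with MXD at 2W, where it read 7248 and 6089 against 5242 and 4350. The log2 fold of 0.48 ± 0.01 (SD, n = 2 arrays) is 1.39-fold, below the threshold of 1.5. With N-CE at 1W it was at -0.18 ± 0.08 (SD, n = 2 arrays), in the comparison where Tchh fell 8.33-fold by its brighter probe.

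Padi2 went its own way among the deiminases. With MXD at 1W it read 634 and 675 against 1449 and 1635 in VC, and at 2W 1022 and 784 against 2340 and 2349. The log2 folds were -1.23 ± 0.06 and -1.39 ± 0.28 (SD, n = 2 arrays), or 2.35-fold and 2.62-fold lower. With N-CE at 1W, where Padi1, Padi3 and Padi4 fell, Padi2 was at 0.01 ± 0.03 (SD, n = 2 arrays). The N-CE value at 2W was -0.47 ± 0.21 (SD, n = 2 arrays), which was not called.

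Skeletal muscle markers were measured beside Padi2, since whole back skin carries a thin muscle layer. All 10 markers were above background in every comparison. MXD lowered 7 of 10 markers in 1W (median -0.82), all 10 in 2W (median -1.46) and 1 in 3W (median -0.38). Their summed signal with MXD at 1W was 304285 to 349107 against 551060 to 574432 in VC, and at 2W 213351 to 379111 against 687430 to 853638. N-CE lowered 0 of 10 in 1W (median -0.16), 1 in 2W (median -0.43) and 0 in 3W (median -0.34). For 1W the summed signal with N-CE was 419273 to 450305 against 479826 to 481789. With MXD at 1W Padi2 lay below every one of the 10 markers. Macrophage markers behaved differently: 0 of 7 were called with MXD at 1W, where 6 lay above 0, and 5 of 7 were lower at 2W with a median of -0.79. The part of muscle or macrophages in the Padi2 values was not tested. In pooled tissue RNA, fewer cells of a type and less RNA per cell cannot be told apart, for these as for the follicle genes.

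**Figure D2:**
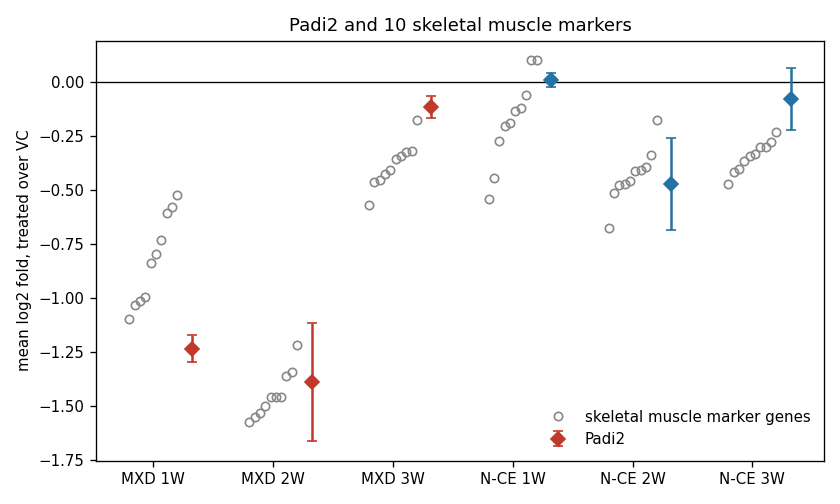
Mean log2 fold of treated over VC (y axis) by comparison (x axis) for Padi2 (diamonds, red MXD and blue N-CE, error bars are the SD of 2 arrays) and each of 10 skeletal muscle markers (open circles, means of 2 arrays). Padi2 and all the markers lay below 0 with MXD at 1W and 2W, and Padi2 lay at 0.01 with N-CE at 1W.

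The deiminase genes are neighbours on chromosome 4. In GRCm38.p6 they run Padi6 (chr4:140727355-140742643), Padi4 (chr4:140745508-140774239), Padi3 (chr4:140785369-140810648), Padi1 (chr4:140812981-140845778) and Padi2 (chr4:140906336-140952586). The 3 genes in the middle rose and fell together with MXD at 2W and N-CE at 1W, while Padi2 at the end fell with MXD. Padi6, the deiminase of the oocyte and embryo, was not well above background in any comparison, with processed signals of 4.77 to 23.5.

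MXD and N-CE were set against each other within each week, and a member was called when both MXD arrays lay on the same side of both N-CE arrays with a fold above 1.5 or below 0.75. At 1W and again at 2W, 5 genes were higher with MXD (Padi1, Padi3, Padi4, Tchh and S100a3) and Padi2 was lower. By the same rule 6.66% of all probes were higher and 9.47% lower at 1W, while for 2W these shares were 6.67% and 11.2%. No member was called at 3W, against 2.15% and 3.42% of probes. The 1W difference was 3.58 ± 0.00 (SE, 4 arrays) for Tchh, 3.41 ± 0.14 for Padi3, 2.99 ± 0.27 for S100a3, 2.25 ± 0.11 for Padi1 and 1.21 ± 0.18 for Padi4 on the log2 scale. At 2W the same genes differed by 0.94 to 1.14. Padi2 differed by -1.24 ± 0.05 at 1W and -0.92 ± 0.25 at 2W (SE, 4 arrays). Tgm1 differed by 0.13 ± 0.08 at 1W and 0.46 ± 0.01 at 2W (SE, 4 arrays), neither of which was called. Tgm3 differed by 1.08 ± 0.85 (SE, 4 arrays) at 2W, which was not called because its arrays overlapped.

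The VC pool of a week was read on both sets of arrays, which shows how far identical RNA can differ. Between the VC channels of the MXD and the N-CE arrays, 7 members differed by -0.13 to 0.13 at 1W, and Tchh by -0.67. Its VC readings were 30860 and 32929 on the MXD arrays and 53704 and 47627 on the N-CE arrays. Compared by level in place of ratio, Tchh was 5.67 ± 0.07 with MXD and 2.91 ± 0.15 with N-CE at 1W (SD, n = 2 readings, log2 relative to the 75th percentile of the channel), a smaller difference than the 3.58 above. At 2W Tchh was at -0.47 and the other members were within -0.26 and 0.32.

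Over the 3 weeks, with weeks standing in for replicates, limma called none of the 8 genes and 0% of 31250 probes at an adjusted p under 0.05. This held for MXD, for N-CE and for MXD minus N-CE, with 2624, 898 and 1892 probes at an unadjusted p under 0.05. Among the members, 2 were under that unadjusted level for MXD (Padi2 and S100a3), 0 for N-CE and 4 for the difference. The difference over weeks was 0.77 ± 0.24 for Padi4, -0.73 ± 0.26 for Padi2, 1.11 ± 0.43 for Padi1 and 0.64 ± 0.20 for Tgm3 (log2, SE over 3 weeks), each with an adjusted p of 0.745 by limma. For Tchh it was 1.58 ± 0.65 (log2, SE over 3 weeks). The calls were not repeated through all weeks, as those of MXD lay at 1W and 2W and those of N-CE at 1W.

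The single pools were also compared by level. A level is the log2 of the processed signal minus the log2 of the 75th percentile of its channel, and levels are compared within a gene only. In the VC pools, Padi1 rose from 0.12 ± 0.04 at 1W to 1.82 ± 0.13 at 2W and 2.50 ± 0.20 at 3W (SD, n = 4 readings). Padi3 rose from 2.92 ± 0.06 to 4.37 ± 0.06 and 5.10 ± 0.17, and Padi4 from 0.47 ± 0.05 to 2.13 ± 0.19 and 2.70 ± 0.05 (SD, n = 4 readings). Tgm3 went from -1.07 ± 0.12 to 1.07 ± 0.48 and then 1.18 ± 0.19 (SD, n = 4 readings). From 1W to 2W these changes exceed the spread of the readings of 1 pool. From 2W to 3W those of the brightest probes of Padi1, Padi3 and Padi4 do so too, while the Tgm3 readings overlapped. The second Padi4 probe did not rise in VC from 2W to 3W, at 1.13 ± 0.49 and 1.06 ± 0.90 (SD, n = 4 readings). The third went from -3.50 ± 0.46 to -2.53 ± 0.12 (SD, n = 4 readings). Weeks are also slides and no replicate pool exists, so the changes carry no test.

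Tchh differed by probe in its change from 1W to 2W. The brighter probe was at 5.57 ± 0.48, 5.59 ± 0.41 and 5.42 ± 0.20 in VC at 1W, 2W and 3W (SD, n = 4 readings). The coding probe went from -1.41 ± 0.09 to 0.66 ± 0.14 and 0.74 ± 0.17 (SD, n = 4 readings), a change of 2.07 from 1W to 2W against 0.03 at the brighter probe. No Tchh spot was saturated, and which probe follows the transcript was not tested. The week-to-week level of Tchh is therefore not settled, whereas both probes had folds of the same direction in the called comparisons.

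Within 1W, the N-CE pool was the lowest of all 9 pools for Padi1, Padi3, Padi4, Tchh, S100a3, Tgm1 and Tgm3, and its readings did not overlap with the next pool for any of these 7 genes. The level was -2.00 ± 0.12 for Padi1, 0.17 ± 0.14 for Padi3 and 2.91 ± 0.15 for Tchh (SD, n = 2 readings). One week later the N-CE pool was higher by 3.97 for Padi1, 4.56 for Padi3, 3.04 for Padi4, 3.29 for S100a3 and 2.51 for Tgm3. Between the same weeks VC was higher by 1.70, 1.45, 1.66, 0.50 and 2.14 in this order, and slides differ too. The MXD 2W pool was the highest of the 9 for the brightest probes of the same 7 genes. By the brightest probes, its readings overlapped the next pool for Tchh alone, where 1 N-CE 2W reading was higher than 1 of MXD. The second Padi4 probe did not give that order. It was at 1.84 ± 0.16 in N-CE 2W, 1.80 ± 0.27 in MXD 2W and 1.78 ± 0.31 in N-CE 3W (SD, n = 2 readings), which differ by less than their spread.

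The order of pools differed for Padi2, whose highest levels were N-CE 1W (1.08 ± 0.11, SD, n = 2 readings), VC 1W (0.93 ± 0.19, SD, n = 4 readings) and VC 2W (0.86 ± 0.16, SD, n = 4 readings), which overlapped each other. Its lowest were MXD 1W and MXD 2W, both at -0.45, which overlapped too. In VC it was 0.26 ± 0.22 at 3W (SD, n = 4 readings), and the MXD and N-CE readings of that week lay within the range of the VC readings.

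**Figure D3:**
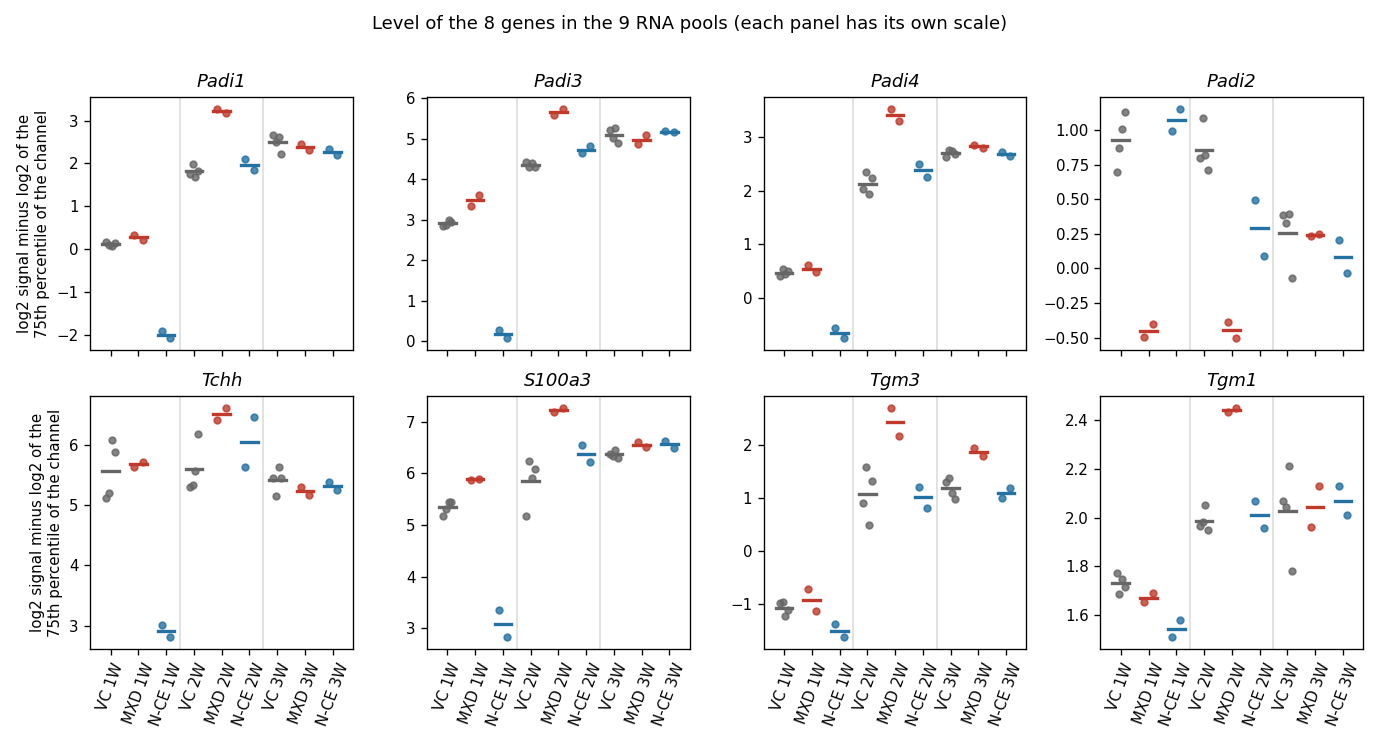
Level of each gene (y axis, log2 of processed signal minus log2 of the 75th percentile of the channel, with a scale of its own in each panel) in the 9 RNA pools (x axis), with points for single readings and bars for means. VC (grey) has 4 readings and MXD (red) and N-CE (blue) have 2 each. N-CE 1W is the lowest pool and MXD 2W the highest in all panels except Padi2.

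The fold patterns over the 12 arrays were compared by the RMS difference of their log2 folds, as a description. Padi3 and Tchh were the closest of the 28 member pairs, at 0.22. Padi1 and S100a3 followed at 0.36, then Padi1 and Padi3 at 0.42. Padi4 was about as near to Tgm3 (0.43) as to Padi1 (0.44) and farther from Tchh (0.85). The member nearest to Padi2 was Tgm1 at 0.94, and its pair with Tchh was the most distant at 1.82. The 12 arrays share 3 VC pools, so they are not independent points.

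**Figure D4:**
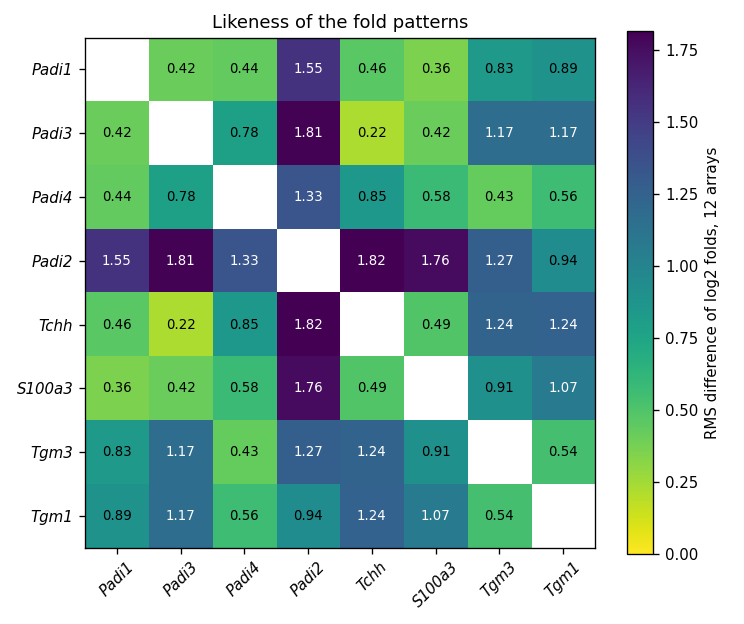
RMS difference of the log2 folds over 12 arrays for each pair of the 8 genes, printed in each cell and shaded from light (alike) to dark (unlike). Padi3 and Tchh are the most alike at 0.22, and the lightest cell of the Padi2 row is Tgm1 at 0.94.

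The same measure was searched over 23247 probes above background in all comparisons for the genes nearest to 5 members. Nearest to Tchh were Otop2 (0.17), a proton channel, Fbp1 (0.22), an enzyme of gluconeogenesis, and Krt28 (0.22), a keratin of the inner root sheath. For Padi3 they were Krt28, Sct, which encodes secretin, and Krtap12-1, a keratin-associated protein, each at 0.17. Padi1 was nearest to Gm11568 (0.20), Gprc5d (0.20), a receptor of keratinizing hair cells, and Serpina9 (0.21). S100a3 was nearest to the cortex keratin Krt31 (0.12), then Cryba4 (0.15) and Krtap7-1 (0.18). For Tgm3 they were D8Ertd82e, now named Prag1 (0.20), Snx29 (0.21) and Syt7 (0.21). No hair keratin was among the 3 nearest to Tgm3.

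Genes around the pathway were counted from lists of known function. The keratins of the inner root sheath and medulla, the filaments that trichohyalin is joined to, had 6 genes on the array. All 5 that could be measured rose with MXD at 2W (median 1.23), and 6 of 6 fell with N-CE at 1W (median -2.76). Krt71 was at 1.23 and -2.82, and Krt25 at 1.42 and -2.72. With MXD at 1W all 6 lay above 0 with a median of 0.44, and 0 were called. The hair cortex keratins, whose cells lie inside the sheath, gave 7 of 7 higher with MXD at 2W (median 1.33), 7 of 7 lower with N-CE at 1W (median -2.40) and 4 of 7 higher with MXD at 1W.

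Follicle transcription factors were called less completely. Of 11 measured, 6 rose with MXD at 2W (median 0.97) and 6 fell with N-CE at 1W (median -0.68). The homeobox genes Dlx3 and Msx2 were called in both, Dlx3 at 1.36 and -1.33 and Msx2 at 1.20 and -2.15. Lef1, the Wnt effector, was at 1.47 and -1.92. Gata3, a factor of the inner root sheath, was not called in either, at 0.40 and -0.09.

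**Figure D5:**
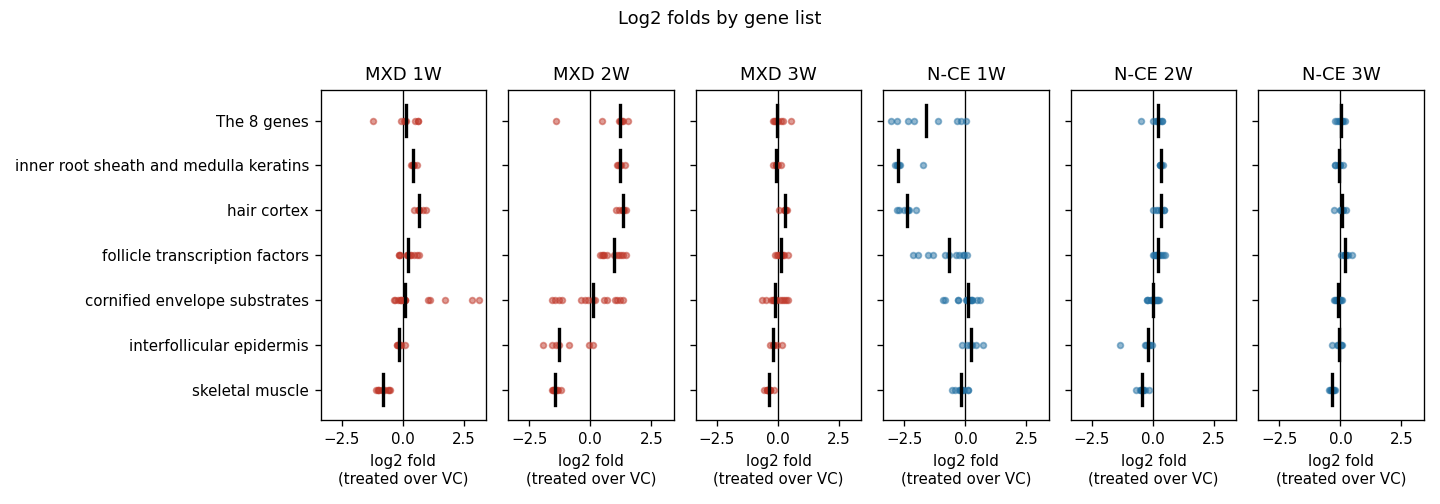
Mean log2 fold of treated over VC (x axis) for each measured gene (points) of 7 lists (y axis) in the 6 comparisons, with a black bar at the median of each list. The sheath and cortex keratins lie with the members at MXD 2W and N-CE 1W, and the skeletal muscle markers lie below 0 with MXD.

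Relatives of the members in sequence did not all move with them. Tchhl1, the trichohyalin-like gene beside Tchh on chromosome 3, rose with MXD at 2W at 1.45. It was not well above background in either pool of N-CE at 1W and gave no value there. Of the other fused S100 genes, which serve the epidermal barrier, Hrnr and Flg2 fell with MXD at 2W, at -1.45 and -1.55. Flg and Rptn rose with MXD at 1W, at 0.85 and 0.95, and Flg was also called higher with N-CE at 3W, at 0.72. Of 12 S100 genes near S100a3, S100a7a and S100a8 rose with MXD at 2W at 1.18 and 0.96, whereas S100a4 fell there at -1.42. With MXD at 1W S100a8 and S100a9 rose at 2.89 and 2.51, and S100a9 rose with N-CE at 1W at 1.09. S100a7a was also called lower with N-CE at 1W, where the treated pool was not well above background, so the size of that fall is not known.

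Other transglutaminases split as well. Of 5 measured with MXD at 2W, Tgm6 rose at 1.27, and Tgm2, the tissue transglutaminase, and F13a1, the A chain of coagulation factor XIII, fell at -0.95 and -0.99. In that comparison F13a1, which macrophages carry, stood beside the 5 of 7 macrophage markers called lower, and its relation to them was not tested. None of the 5 was called with N-CE at 1W. The proteins that transglutaminases join in the cornified envelope had no common direction with MXD at 2W. Of 15 measured, 4 rose, among them Ivl at 1.00 and Sprr1b at 1.20, and 4 fell, among them Lor at -1.17 and Lce1m at -1.44. The interfollicular epidermis markers fell in 5 of 7 cases there with a median of -1.30, including Krt10 at -1.43, while Krt5 and Krt14 were at 0.09 and -0.05. Of the proteases and inhibitors that process transglutaminases, Ctsb rose with MXD at 2W at 0.67, 1 of 7 measured, and 0 of 6 were called with N-CE at 1W.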

How the data were processed

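The DNA microarray data comprise 12 Agilent arrays with 2 colours, 4 for each week. The authors extracted the scans with Agilent Feature Extraction (11.0.1.1 per the labels, 12.0.3.1 per the file headers). The deposited log ratio is log10 of Cy5 over Cy3 after background subtraction and dye normalization. The deposited p-value comes from the software's error model and describes a spot, not the mice. The authors also deposited signal intensity per channel, raw and processed, and flags for background, outliers and saturation. A deposited series matrix of log10 ratios was equal to the log ratios at the probes used here within 8.52e-07.

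Control and outlier-marked spots were left out. Ratios were turned to treated over VC by the dyes in the labels, converted to log2 and averaged over spots of a probe, then over the dye swap. The study's thresholds on P and fold were used for calls. All members are named, with each of their probes. List genes were named if they changed most or were called often, and some others were named after their values were seen. Nearest patterns are the 3 named genes with the smallest RMS difference. Members and lists were chosen with earlier results of these data known. VC channels were compared after normexp, loess and Aquantile normalization in limma 3.58.1, R 4.3.3. Weekly folds were tested with limma and Benjamini-Hochberg adjustment on probes well above background in at least 1 channel of 1 array. Python 3.11.15, numpy 2.4.6 and pandas 2.3.3 were used, and steps were tested on simulated data. Probe positions are on mm9 and promoters and gene loci on GRCm38.p6 from RefSeq, in which all 11 probes' accessions were found. Between 57.0% and 69.6% of 43379 transcript spots were well above background per channel, no spot was saturated, and the number of arrays limits the precision. Alternatives covered the P criterion, fold threshold, background correction, matrix values, outlier spots, dim probes, the mean, the probe of a gene, single arrays, single weeks and the week as a random block. Data on proteins and histology were not analysed here.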

Additional observations from a re-analysis of the deposited data

Results flagged for a closer look

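At 1W both MXD arrays lay above 0 and both N-CE arrays below 0 for 4 genes. The log2 difference of MXD minus N-CE was 3.58 for Tchh, 3.41 for Padi3, 2.99 for S100a3 and 2.25 for Padi1. The difference itself was not tested, as each treatment is 1 pool. Of these, only S100a3 was called higher with MXD in that week by its brightest probe, and the N-CE fold was the larger part of each difference. No group had enough arrays for a test of single outlying arrays.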

How the results depend on the processing

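All 14 called folds of the 8 genes, of 48 in all, kept their direction and call under the 8 alternatives that use both arrays, 112 values in all. Several of these alternatives could not change a called fold. No member spot was marked as an outlier, and the matrix values equalled the log ratios. The brightest probes were above background on all 12 arrays, and dropping the P criterion only relaxes a call. The remaining settings are the fold threshold, normexp and loess, the arithmetic mean and the averaging of probes. Counts of called members changed for MXD at 1W, from 1 higher to 2 without the P criterion and with normexp and loess (Padi3 added) and with all probes of a gene averaged (Tchh added). With N-CE at 2W, 1 member (Padi2) was lower without the P criterion and with normexp and loess, against 0. For MXD at 1W, the second array alone called Padi3 (0.73) in place of S100a3 (0.58). With a single array, the number called higher for MXD at 3W was 0 or 1, and for N-CE at 2W 0 or 2 were higher and 0 or 1 lower. In the fit over weeks, arrays with the week as a random block gave 3 probes called for MXD, none of them a member, against 0. Scaling by the median changed the VC difference from 1W to 2W from 1.45 to 1.38 for Padi3 and from 0.26 to 0.19 for Tgm1. The other level differences moved by less than the SD of the readings. The causes were not tested.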
